A study of Mus musculus with 7 samples.

Results

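The 44 collagen chain genes of the GeoMx mouse whole transcriptome probe set were followed in liver regions of mice on the FFD diet and on the NCD diet. They are all genes of the deposited count table whose symbol is Col, a number, the letter a and a number, 44 of 19951 genes. By structure 11 are fibrillar chains, 6 are type IV chains of basement membrane and 27 belong to other collagens. The study measured RNA in 6 areas of fixed liver sections, 3 from FFD mice and 3 from NCD mice, all 24 weeks old and all marked WT in the deposited region comments. The areas were chosen by staining for Albumin and lay outside the CLEC4F mark, and 1 probe per gene was released by light and counted by sequencing. The diet names are given as the labels give them. The strain, the sex and the time on the diet are not given in the sources used here, and the labels do not tie an area to a mouse.

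Collagens are trimers of chains wound into a triple helix. Fibrillar collagens, mainly types I and III in liver, assemble into the fibres of scar and of portal tracts. Type IV collagen forms the sheet of basement membranes, and other types bind fibre surfaces, make beaded filaments, or span cell membranes. In liver, stellate cells and portal fibroblasts are known as the main makers of fibrillar collagen, and hepatocytes are known for type XVIII collagen. The areas were not purified cells, so a larger number of collagen-making cells and more RNA per cell cannot be told apart.

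Starts of genes that the results turn on are shown from RefSeq, build GRCm38.p6, for Col1a2 and Col3a1, fibrillar chains that rose in FFD, and for the point where the type IV genes Col4a1 and Col4a2 meet. The first pair are the 250 bases before the gene start, at chr6:4505368-4505617 on the plus strand and chr1:45311288-45311537 on the plus strand. Capitals mark the motifs searched on both strands, read on the strand shown or as the reverse complement. They were CCAAT, the GC box with the letters GGGCGG, the TATA box with the letters TATAAA, and a Smad-binding sequence with the letters CAGAC.
Col1a2: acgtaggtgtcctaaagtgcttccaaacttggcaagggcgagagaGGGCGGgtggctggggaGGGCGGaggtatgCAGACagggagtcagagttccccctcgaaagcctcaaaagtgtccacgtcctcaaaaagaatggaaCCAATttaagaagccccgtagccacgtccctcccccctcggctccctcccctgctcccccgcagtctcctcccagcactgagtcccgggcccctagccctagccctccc
Col3a1: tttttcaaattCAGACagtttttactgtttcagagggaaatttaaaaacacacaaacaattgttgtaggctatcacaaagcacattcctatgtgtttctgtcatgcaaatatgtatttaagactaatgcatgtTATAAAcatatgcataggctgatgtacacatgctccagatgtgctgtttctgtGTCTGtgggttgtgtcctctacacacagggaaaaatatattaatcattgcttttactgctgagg
Col4a1/Col4a2: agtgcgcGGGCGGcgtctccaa
The last line is chr8:11312805-11312826, shown on the plus strand. By the RefSeq start windows, Col4a2 starts at its first base and runs forward, and Col4a1 starts at its last base and runs on the minus strand, so the genes begin head to head over these 22 bases. The RefSeq gene record of Col4a1 reaches further, to base 11312889. The upstream bases of Col1a2 were 62.0% G or C and those of Col3a1 35.2%. RefSeq start windows (250 bases before to 50 after the start) were at hand for 35 of 44 chains, 7 of them among the 10 chains that rose in FFD. Col1a1, Col5a2 and Col14a1 had no window. CCAAT was in 3 of these 7 and in 37.4% of all 32544 windows, and the GC box in 4 of 7 and in 35.9%. Over all 35 chains with a window, CCAAT was in 13, the GC box in 22, the TATA box in 5 and the Smad-binding letters in 20. The TATA box was in 1 of 7 and in 13.6%. The Smad-binding letters were in 5 of 7 and in 49.5%. These are matches of letters only.

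Total counts of the 13095 tested genes were 2484982 to 2980639 in FFD regions and 2069102 to 3491371 in NCD regions, and the counts of single collagen chains ran from 10 to 1327. Levels are given in CPM, the depth-scaled count, after scaling each region to its upper quartile. Each gene has its own probe, so levels are compared between regions and with the negative probe, not between genes. The negative probe NegProbe-WTX, which matches no transcript, stood at 10.2 ± 0.977 CPM in FFD and 13.4 ± 0.635 CPM in NCD (SD, n = 3 each), a log2 ratio of -0.39. A chain was counted as detected in a region above 2 times this probe. The 7 hepatocyte markers were detected in all 6 regions. Clec4f, the Kupffer cell lectin whose staining the areas avoided, was also detected in all 6 and did not pass the test (70.8 to 172 CPM in FFD, 115 to 126 CPM in NCD). NCD 1 and NCD 2 lay 2258 units apart on the slide (unit not stated), against 7158 to 18700 for other pairs of 1 diet. Their counts differed by a chi-square of 1.27 per degree of freedom, above the value of 1 for counting noise alone, against 5.13 to 7.89 for the other pairs. P-values measure the spread between these regions, and collagen chain calls that change when NCD 1 and NCD 2 count as 1 region are named below. Calls of the pathway and marker list genes were compared only with and without the filter of the deposited table. They were not examined under other scalings or tests, without single regions, or with NCD 1 and NCD 2 as 1 region.

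Most collagen chains were near background. In all 3 FFD regions 14 of 44 chains were detected, and in all 3 NCD regions 9. By region the number was 17, 21 and 15 chains in FFD 1 to 3, against 14, 11 and 10 in NCD 1 to 3. Of all 19951 genes, 9090, 10532 and 8782 were above the same limit in FFD 1 to 3. In NCD 1 to 3 they were 8077, 8366 and 7996, so genes at large were also detected more often in FFD. Of the 11 fibrillar chains 5 were detected in all FFD regions and 3 in all NCD regions. Of the 6 basement membrane chains 2 were detected in all regions of both diets, and these were Col4a1 and Col4a2. Of the 27 other chains 7 were detected in all FFD regions and 4 in all NCD regions. Above the limit of quantitation of the deposited segment table lay 16, 22 and 13 chains in FFD 1 to 3 and 5, 7 and 8 in NCD 1 to 3. That limit was 2.07, 1.84 and 2.15 times the negative probe in FFD 1 to 3. It was 2.59, 2.63 and 2.20 times in NCD 1 to 3, so it was stricter in NCD. FFD 2, with the most chains, also had the highest ratio of counts to deduplicated reads, 1.51, and the part of this in the number of chains was not tested. The 22 chains under the limit in every region spanned 0.35 to 1.95 times the negative probe.

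**Figure D1:**
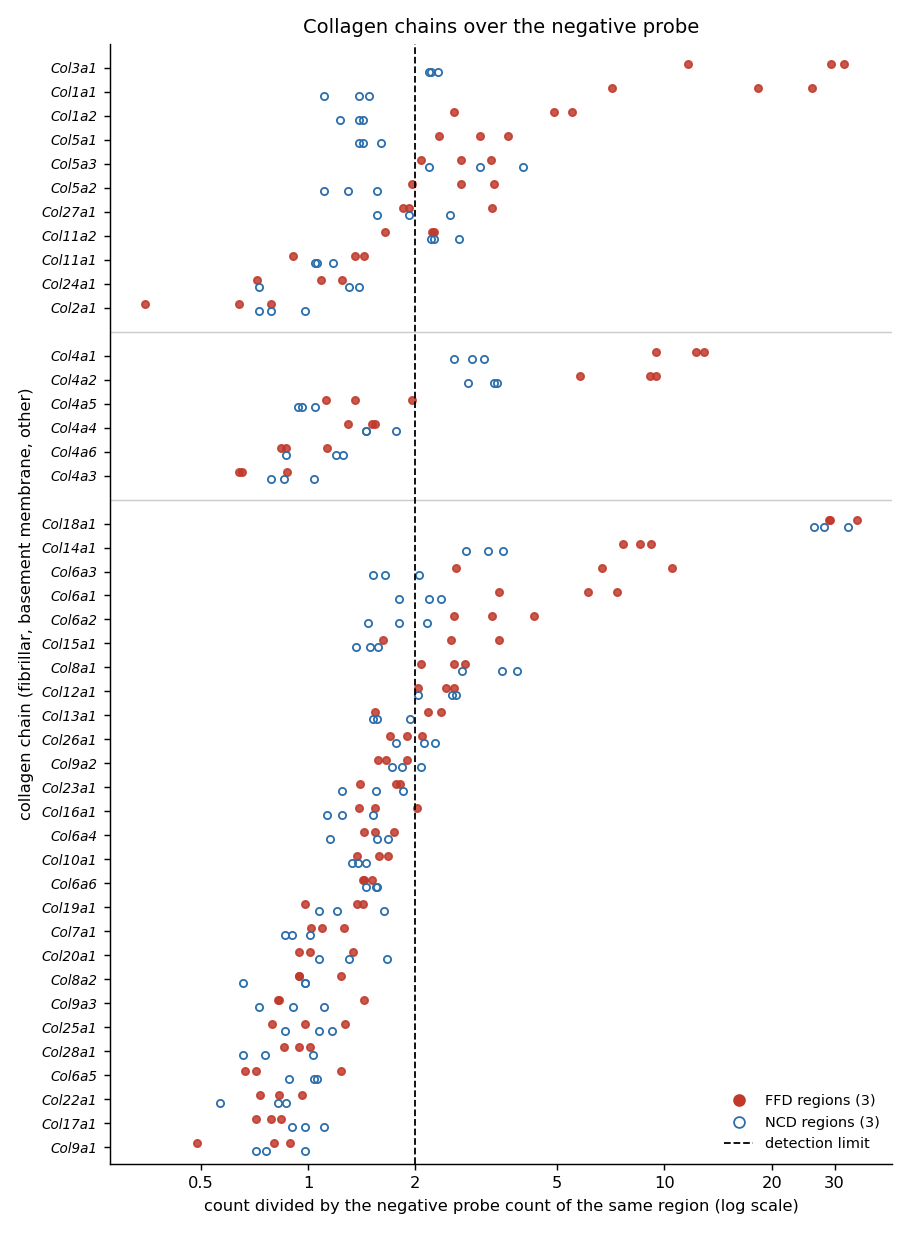
Count of each of the 44 chains divided by the negative probe count of the same region (log scale), with filled points for the 3 FFD regions, open points for the 3 NCD regions and a dashed line at the detection limit of 2. Col3a1 and Col1a1 reach 31.8 and 25.9 in FFD regions and stay under 2.4 in NCD regions, while 22 chains never cross the line.

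Which chains differ by diet was tested in 1 fit over all genes. Of the 27 chains tested, 10 rose and 4 passed as lower (edgeR quasi-likelihood test, adjusted p under 0.05 over all 13095 tested genes). Among all tested genes 5.94% were called higher and 11.1% lower. Fibrillar chains gave 5 higher and 2 lower of 9 tested, basement membrane chains 2 higher and 1 lower of 4, and other chains 3 higher and 1 lower of 14. The median log2 fold change was 0.63 for fibrillar, 0.24 for basement membrane and -0.17 for other tested chains, against -0.11 for all tested genes. The 17 untested chains were absent from the deposited filtered table, whose rule is not stated, and none of them was detected in any region. Any chain that entered only through a high level in 1 diet would have to differ, and which chains did so is not known. These medians therefore describe the tested chains alone. Without the filter 11 of 44 chains were called higher and 5 lower, where 4.7% and 8.24% of 19951 genes were. The medians were then -0.10, -0.08 and -0.20, against -0.15 for all genes. In CPM 8 of 44 chains lay higher in every FFD region than in any NCD region, where 8.13% of all genes did so, and 15 lay lower, where 29.2% did.

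The split of calls over all genes depended on scaling. It was 778 higher and 1459 lower with the upper quartile, 1138 and 893 with TMM, 1131 and 894 with DESeq2 size factors, 1129 and 604 with total counts, and 3632 and 206 with the negative probe. The median of all genes moved up by 0.39 on the log2 scale with the negative probe and by 0.11 with total counts. Across these scalings 10 to 12 chains were called higher and 0 to 2 lower, against 4 lower with the upper quartile.

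**Figure D2:**
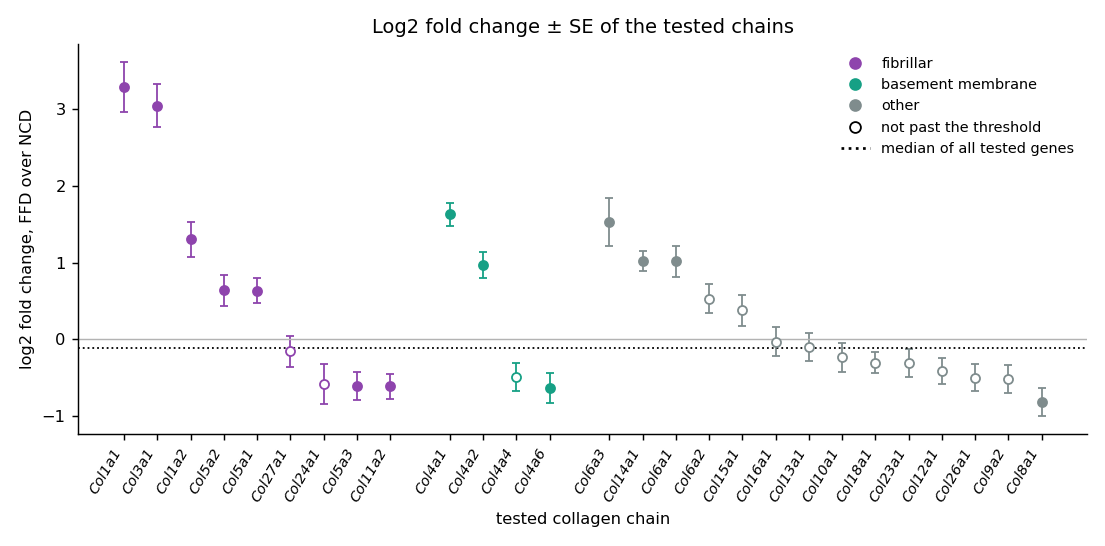
Log2 fold change of FFD over NCD with its SE for the 27 tested chains, grouped as fibrillar, basement membrane and other, with filled points past the threshold and a dotted line at the median of all tested genes. Col1a1 and Col3a1 stand at 3.28 and 3.04, and the lower calls lie between -0.61 and -0.82.

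Among fibrillar chains the type I and type III genes rose most. Col1a1, the alpha 1 chain of type I collagen (gene ID 12842, GRCm38 chromosome 11, 94936224 to 94953042), was at 199.8, 235.3 and 75.9 CPM in FFD 1 to 3, against 19.4, 19.8 and 14.1 CPM in NCD 1 to 3. Every FFD region lay above every NCD region, and FFD 3 was the lowest of the FFD regions. The mean was 170.3 ± 83.7 CPM in FFD and 17.8 ± 3.18 CPM in NCD (SD, n = 3 each), 9.74-fold higher (log2 3.28, SE 0.33, edgeR adjusted p 9.27e-06). In NCD its probe stood at 1.11 to 1.49 times the negative probe and was detected in no region, so background is part of its NCD level. After subtraction of the negative probe count the log2 difference was 5.19 (SE 0.52). It rests on small remainders, as the NCD counts were 40, 47 and 45 against negative probe counts of 28.8, 31.6 and 40.7.

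Col3a1, the single chain of type III collagen (gene ID 12825, chromosome 1, 45311538 to 45349706), was at 346.5, 266.2 and 124.5 CPM in FFD 1 to 3, against 30.6, 29.4 and 29.5 CPM in NCD 1 to 3. The diets did not overlap, and the NCD regions lay close together. It rose 8.24-fold (log2 3.04, SE 0.28, edgeR adjusted p 4.2e-06) and was detected in all 6 regions. Col1a2, the alpha 2 chain of type I collagen (chromosome 6, 4505618 to 4541543), was at 53.4, 50.2 and 27.3 CPM in FFD, against 19.4, 18.9 and 15.7 CPM in NCD. It also did not overlap and rose 2.46-fold (log2 1.30, SE 0.22, adjusted p 0.00115). No NCD region detected it, and the log2 difference after background subtraction was 2.80 (SE 0.42), again over small NCD remainders.

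Type V collagen, a minor fibril component that sets fibre width, gave smaller differences. Col5a1 (chromosome 2) was at 33.2, 33.0 and 24.9 CPM in FFD and at 19.4, 18.9 and 20.4 CPM in NCD. It rose by 0.63 on the log2 scale (SE 0.17, adjusted p 0.0165) without overlap. Col5a2, next to Col3a1 on chromosome 1, was at 29.4, 30.2 and 20.9 CPM in FFD and at 21.9, 17.2 and 14.1 CPM in NCD. It rose by 0.64 (SE 0.20, adjusted p 0.0385), and FFD 3 lay under NCD 1. Both were under the limit in all NCD regions. The call of Col5a1 was lost without FFD 1, FFD 2, NCD 1 or NCD 2 (adjusted p 0.0522 to 0.0718). That of Col5a2 was lost without FFD 1, FFD 2, NCD 2 or NCD 3 (0.0990 to 0.136) and with NCD 1 and NCD 2 as 1 region (0.0568).

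The remaining fibrillar chains did not rise. Col5a3, another type V chain, was at 29.4, 29.6 and 22.1 CPM in FFD, against 30.6, 40.4 and 51.1 CPM in NCD (log2 -0.61, SE 0.18, adjusted p 0.0327). Col11a2, a chain of the cartilage fibril collagen type XI, was at 17.9, 20.3 and 24.1 CPM in FFD, against 31.1, 35.3 and 28.9 CPM in NCD (log2 -0.61, SE 0.16, adjusted p 0.0190). For both, every FFD region was lower than every NCD region, and the negative probe itself stood at -0.39. With negative probe scaling the values were -0.22 for both (adjusted p 0.434 for Col5a3 and 0.388 for Col11a2). The call of Col5a3 was also lost with TMM (0.0697), total counts (0.111), background subtracted (log2 -0.83, 0.104) and the DESeq2 Wald test (0.150), and without FFD 2, FFD 3, NCD 2 or NCD 3 (0.0548 to 0.144). Without NCD 3 its value was -0.39. That of Col11a2 was lost with total counts (0.0801), background subtracted (log2 -0.91, 0.0858) and the Wald test (0.128), and without FFD 1, FFD 2, NCD 1 or NCD 2 (0.0503 to 0.101). Col27a1 and Col24a1 did not pass the test, at -0.15 (adjusted p 0.621) and -0.58 (0.135), and Col11a1 and the cartilage chain Col2a1 were not in the filtered table.

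**Figure D3:**
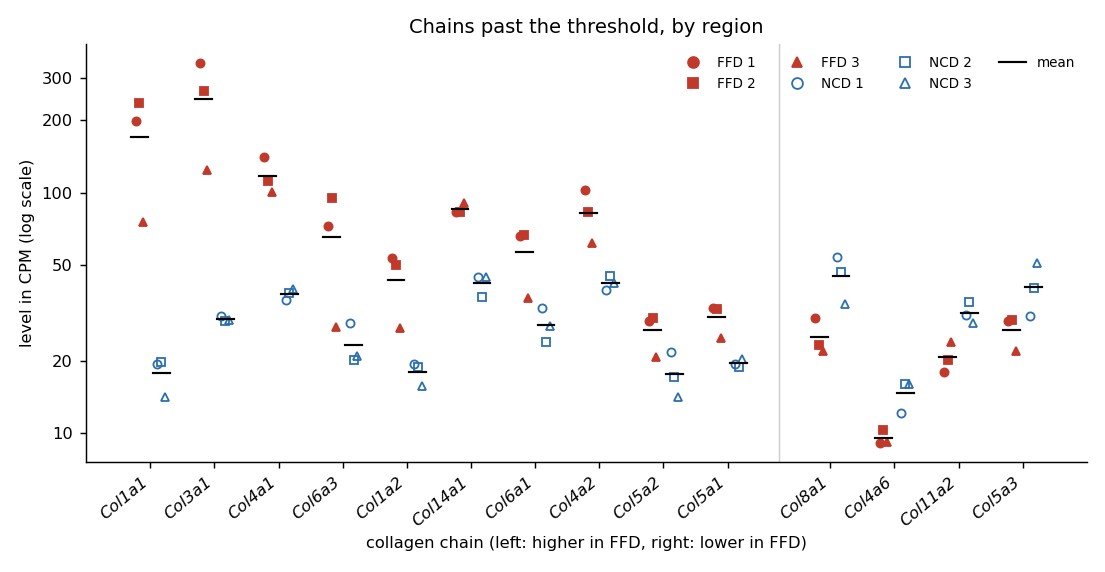
CPM (log scale) of the 14 chains past the threshold, with filled FFD symbols left of open NCD symbols, a shape for each region and a line at each mean. The 10 chains on the left are higher in FFD, with FFD 3 as the lowest FFD symbol for all but Col14a1, and the 4 on the right are lower in FFD.

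Of the basement membrane chains, the pair that makes the common type IV trimer rose. Col4a1 (gene ID 12826, chromosome 8, 11198423 to 11312889) was at 140.7, 111.6 and 101.2 CPM in FFD 1 to 3, against 36.0, 38.3 and 39.8 CPM in NCD 1 to 3. Its partner Col4a2 (gene ID 12827, chromosome 8, 11312805 to 11449287), which begins head to head with it as shown above, was at 102.9, 82.9 and 61.8 CPM in FFD and at 39.38, 45.00 and 42.33 CPM in NCD. Neither overlapped between diets, and both were detected in all 6 regions. Col4a1 rose 3.09-fold (log2 1.63, SE 0.15, adjusted p 3.61e-06) and Col4a2 1.95-fold (log2 0.97, SE 0.17, adjusted p 0.00125).

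The tissue-restricted type IV chains, known from kidney glomeruli and other special basement membranes, were at background. Col4a3, Col4a4, Col4a5 and Col4a6 were under the detection limit in every region. Col4a6 passed as lower, at 9.15, 10.3 and 9.23 CPM in FFD and 12.15, 15.98 and 15.99 CPM in NCD (log2 -0.63, SE 0.20, adjusted p 0.0401). Those levels lie at 0.84 to 1.25 times the negative probe, and the call was lost in 15 of 18 alternatives that gave a value, among them TMM (adjusted p 0.0786) and no filter (0.0662). It was lost too without FFD 1, FFD 2, FFD 3, NCD 2 or NCD 3 (0.0710 to 0.135) and with NCD 1 and NCD 2 as 1 region (0.0572). Col4a4 did not pass (log2 -0.49, adjusted p 0.0790).

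Among the other collagens, 2 of 6 type VI chains and the type XIV chain rose. Type VI collagen makes beaded filaments around cells from alpha 1, 2 and 3 chains. Col6a1 (chromosome 10) was at 66.3, 67.0 and 36.5 CPM in FFD, against 33.1, 24.0 and 27.9 CPM in NCD (log2 1.02, SE 0.20, adjusted p 0.00360). Col6a3 (chromosome 1) was at 72.8, 95.4 and 27.7 CPM in FFD, against 28.7, 20.2 and 21.0 CPM in NCD (log2 1.53, SE 0.32, adjusted p 0.00444). Col6a1 did not overlap, while Col6a3 in FFD 3 lay under NCD 1, and under the robust option of edgeR its adjusted p was 0.138. Col6a1 was detected in 2 NCD regions and Col6a3 in 1, so background is part of their NCD levels.

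Col6a2, beside Col6a1 on chromosome 10, was at 35.8, 39.3 and 27.3 CPM in FFD and at 30.1, 24.0 and 18.8 CPM in NCD. It did not pass the test (log2 0.53, SE 0.19, adjusted p 0.0633). It passed with TMM (adjusted p 0.0285), without the filter (0.0300), without FFD 3 (0.0233) and without NCD 1 (0.0409). Col6a4, Col6a5 and Col6a6, which lie together on chromosome 9, were under the limit in every region.

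Col14a1 encodes type XIV collagen, which binds the surface of fibrils and is known from fibroblasts. It was at 83.5, 83.2 and 91.1 CPM in FFD, against 44.7, 37.0 and 44.8 CPM in NCD. The FFD regions were close to each other and all above the NCD regions (log2 1.02, SE 0.13, adjusted p 9.37e-05). Col12a1, the related type XII chain, did not pass at 22.1, 22.1 and 27.3 CPM in FFD and 36.5, 33.6 and 26.0 CPM in NCD (log2 -0.41, SE 0.17, adjusted p 0.102). It passed as lower without NCD 3 (adjusted p 0.0322).

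Col18a1, the core of type XVIII collagen and source of the fragment endostatin, stood furthest above the negative probe in NCD. It was at 314.9, 315.1 and 309.9 CPM in FFD, against 368.0, 373.5 and 416.1 CPM in NCD. Every FFD region lay under the NCD regions, but the test was not passed (log2 -0.30, SE 0.14, adjusted p 0.136), and with negative probe scaling the value was 0.090. The other multiplexin, Col15a1, was at 27.4, 31.2 and 17.3 CPM in FFD and at 20.9, 18.1 and 20.1 CPM in NCD, and did not pass (log2 0.38, SE 0.20, adjusted p 0.202).

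Col8a1, a network-forming chain of vessel walls, was at 30.1, 23.4 and 22.1 CPM in FFD, against 54.0, 46.7 and 34.5 CPM in NCD. It was detected in all 6 regions and fell without overlap (log2 -0.82, SE 0.18, adjusted p 0.00642). With background subtracted it stood at -1.18 (adjusted p 0.0196), and with negative probe scaling at -0.43 (0.0765).

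The other 6 tested chains did not pass, with log2 values from -0.51 to -0.03 and adjusted p from 0.0566 to 0.932. The nearest to the threshold were Col26a1, at 20.6, 19.0 and 18.1 CPM in FFD and 29.7, 30.3 and 22.6 CPM in NCD (log2 -0.50, adjusted p 0.0566), and Col9a2, a cartilage chain, at 20.6, 14.3 and 17.7 CPM in FFD and 29.2, 24.4 and 21.9 CPM in NCD (log2 -0.51, adjusted p 0.0669). Both lay lower in every FFD region than in any NCD region. Col13a1, a membrane-spanning chain, was at -0.10 (adjusted p 0.734) and was detected in 2 FFD regions and no NCD region. Col16a1 (-0.03, adjusted p 0.932), Col23a1 (-0.31, 0.245) and Col10a1 (-0.23, 0.421) overlapped between the diets.

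The 22 chains under the limit in all regions included cartilage, epithelial and neural collagens such as Col2a1, Col9a1, Col10a1, Col17a1 and Col25a1. Their CPM ran from 3.81 to 24.8, and 21 of 22 had a negative log2 fold change without the filter. Their median in that fit was -0.35, against -0.15 for all genes. The negative probe stood at -0.39 under the scaling of the main fit, which is not the same scale. Of the 17 chains in no main test, Col2a1 (log2 -0.82, adjusted p 0.0421) and Col17a1 (-0.68, 0.0415) passed as lower in the fit without the filter.

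Chains that rose did so to different extents within FFD. The level in FFD 3 over the mean of FFD 1 and FFD 2 was 0.33 for Col6a3, 0.35 for Col1a1, 0.41 for Col3a1, 0.53 for Col1a2 and 0.55 for Col6a1. It was 0.67 for Col4a2, 0.70 for Col5a2, 0.75 for Col5a1, 0.80 for Col4a1 and 1.09 for Col14a1. The ratio of counts to deduplicated reads also differed, at 1.2, 1.51 and 1.01 in FFD 1 to 3. It was 0.996, 0.996 and 0.997 in NCD 1 to 3. The part of this ratio in the differences between FFD regions was not tested. Summed over all 11 fibrillar chains the level was 756.0, 721.6 and 373.8 CPM in FFD 1 to 3, against 231.4, 258.7 and 238.3 CPM in NCD 1 to 3. The 6 type IV chains summed to 288.6, 242.2 and 210.0 CPM in FFD and to 140.0, 143.8 and 138.9 CPM in NCD. The 27 others summed to 915.7, 916.5 and 796.5 CPM in FFD and to 948.5, 903.4 and 896.8 CPM in NCD. Fibrillar and type IV sums did not overlap between diets, and those of the others did. These sums hold background from each chain. With the negative probe subtracted the fibrillar sums were 636.2, 621.6 and 256.5 CPM in FFD, against 77.24, 112.4 and 98.06 CPM in NCD. The type IV sums were then 223.2, 187.6 and 146.0 CPM in FFD, against 55.92, 64.05 and 62.41 CPM in NCD. Those of the others still overlapped.

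With FFD 3 as the only FFD region, 4 chains were called higher in place of 10. Col1a1 stood at 2.12 (adjusted p 6.83e-06), Col3a1 at 2.06 (8.82e-07), Col4a1 at 1.41 (5.65e-05) and Col14a1 at 1.11 (8.97e-04). The calls of Col1a2 (0.62, adjusted p 0.141), Col4a2 (0.55, 0.0812), Col6a1 (0.38, 0.326) and Col6a3 (0.27, 0.541) were lost, as were those of Col5a1 (0.34, 0.402) and Col5a2 (0.27, 0.587). That fit assumes that FFD 3 varies like the NCD regions. Without FFD 3, Col1a1 was at 3.63 and Col3a1 at 3.36.

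**Figure D4:**
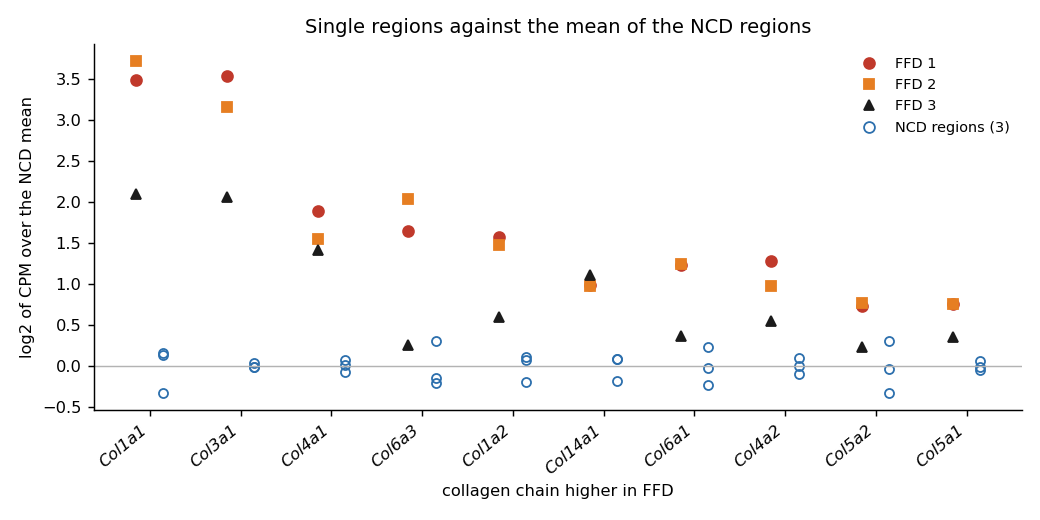
Log2 of the CPM of each region over the mean of the NCD regions for the 10 chains higher in FFD, with a symbol for each FFD region and open circles for the NCD regions. FFD 3 lies below FFD 1 and FFD 2 for every chain but Col14a1.

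Genes that modify, process, bind or break down collagen were counted from lists chosen with earlier results of these data known. Among all tested genes 5.94% were called higher and 11.1% lower. Of 14 tested genes for chain modification 1 rose and 1 fell, with a list median of 0.15 against -0.11 for all tested genes. Fold changes below are on the log2 scale. Colgalt1, which adds galactose to hydroxylysine, rose by 0.57 (SE 0.13, adjusted p 0.00623), and P3h2, a prolyl 3-hydroxylase, fell by 0.60 (SE 0.17, adjusted p 0.0271). Procollagen processing gave 0 higher and 1 lower of 7 (median -0.14), where Tll1, of the family that trims procollagen ends, fell by 0.69 (SE 0.18, adjusted p 0.0150). Of 3 tested cross-linking genes 1 rose (median 0.36). Tgm2, a transglutaminase, rose by 1.49 (SE 0.15, adjusted p 1.33e-05), at 145.6, 122.5 and 171.0 CPM in FFD and 50.1, 45.8 and 59.3 CPM in NCD. The lysyl oxidase genes Lox, Loxl2 and Loxl4 were not in the filtered table.

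Collagen-binding matrix genes rose in 4 of 8 tested cases and none fell (median 0.71). The small proteoglycans Bgn, Lum and Dcn, which sit on fibrils, rose by 1.74 (SE 0.21, adjusted p 4.86e-05), 1.14 (SE 0.27, 0.0101) and 0.94 (SE 0.15, 8.34e-04), and Sparc, a collagen-binding glycoprotein, rose by 1.35 (SE 0.16, 4.86e-05). Lum was at 80.8, 137.2 and 45.8 CPM in FFD, against 39.4, 41.2 and 40.5 CPM in NCD. Partners in the basement membrane gave 2 higher and 0 lower of 13 (median 0.34). Nid1, which links laminin to type IV collagen, rose by 0.97 (SE 0.19, adjusted p 0.00335) and the laminin chain Lama4 by 0.52 (SE 0.16, 0.0337).

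Collagen receptors gave 1 higher and 0 lower of 7 (median 0.21), and the integrin chain Itgb1 rose by 0.55 (SE 0.13, adjusted p 0.0109). Collagen breakdown gave 1 higher and 1 lower of 5 (median -0.07). Mmp14, a membrane collagenase, rose by 0.58 (SE 0.14, adjusted p 0.00913), and Mmp9, a gelatinase under the limit in every region, was called at -0.68 (SE 0.22, 0.0464). Without the filter the Mmp9 call was lost (adjusted p 0.0571), and Mmp2, another gelatinase, passed as higher (0.0243). Of the 4 protease inhibitors 1 rose and 1 fell (median 0.35). Timp2 rose by 0.90 (SE 0.23, adjusted p 0.0162), and Timp4, detected in 1 NCD region and no FFD region, was called at -0.61 (SE 0.18, 0.0336). Without the filter Adamts2 (adjusted p 0.0279), Lair1 (0.0465) and Timp3 (0.0252) of these lists also passed as higher.

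**Figure D5:**
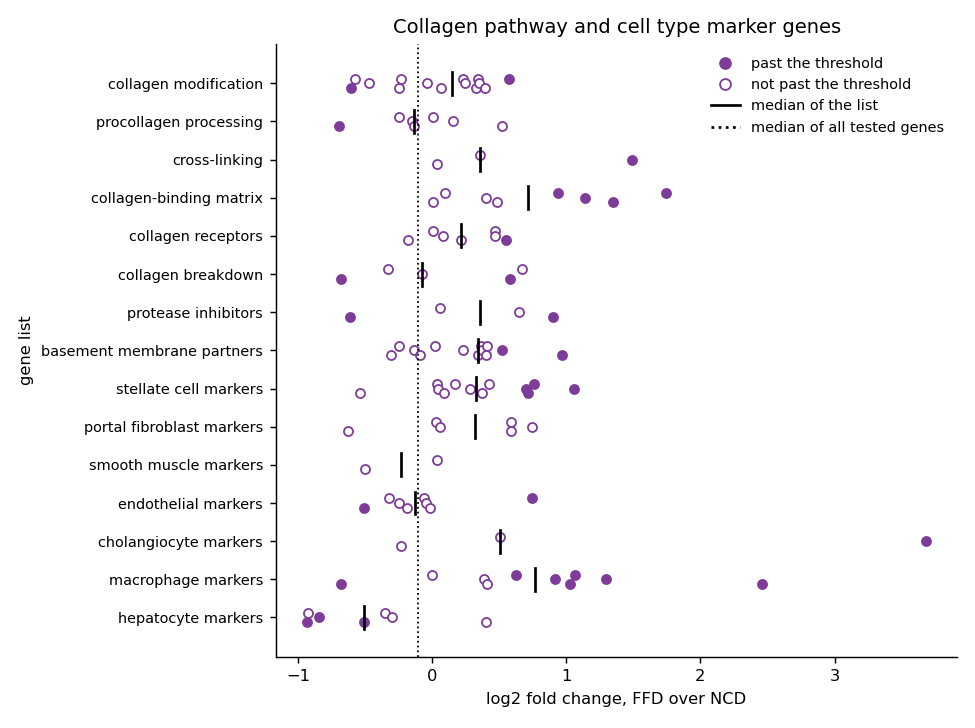
Log2 fold change of FFD over NCD for each tested gene of the collagen pathway and cell marker lists, with filled points past the threshold, a bar at each list median and a dotted line at the median of all tested genes. Collagen-binding matrix genes and macrophage markers have medians of 0.71 and 0.77.

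Markers of cell types that the areas could hold were counted in the same fit, and their calls differed between lists. Of 12 stellate cell markers 4 rose and none fell (median 0.33), and their summed level was 552.4 to 624.5 CPM in FFD, against 418.3 to 449.7 CPM in NCD. Cygb, Rgs5 and Pdgfrb rose by 1.06 (SE 0.18, adjusted p 0.00112), 0.70 (SE 0.14, 0.00417) and 0.76 (SE 0.18, 0.00969). Pdgfrb was detected in no NCD region, so background is part of its NCD level. Lrat, the retinol-storing enzyme of stellate cells, was at 44.6, 28.4 and 38.5 CPM in FFD and 30.6, 29.4 and 23.2 CPM in NCD and did not pass (log2 0.43, adjusted p 0.110). By region the stellate sum was 624.5, 563.6 and 552.4 CPM in FFD 1 to 3, and the fibrillar sum 756.0, 721.6 and 373.8 CPM. Single stellate markers ran in different orders over these regions. Cygb, at 72.0, 106.3 and 60.6 CPM, and Pdgfrb, at 32.0, 32.1 and 26.9 CPM, were lowest in FFD 3. Colec11, at 93.0, 63.3 and 103.2 CPM, and Ngfr, at 20.2, 17.5 and 24.1 CPM, were highest there. Lrat was lowest in FFD 2.

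Portal fibroblast markers gave 0 higher and 0 lower of 6 tested (median 0.32). Their sums were 253.9, 278.1 and 167.0 CPM in FFD 1 to 3 and 187.5 to 243.6 CPM in NCD. Thy1 was at -0.63 (adjusted p 0.0516) and Fbln1 at 0.59 (0.0831). Without the filter Fbln1 (adjusted p 0.0456) and Cd34 (0.0431) passed as higher. Smooth muscle markers gave none of 2 tested (median -0.23), with Cnn1 under the limit in all regions. Their sums were 70.7 to 76.2 CPM in FFD and 76.2 to 93.8 CPM in NCD, largely background. With the negative probe subtracted they were 21.79, 26.22 and 17.34 CPM in FFD 1 to 3. In NCD 1 to 3 they were 23.75, 15.52 and 12.45 CPM, which overlapped with FFD. Cnn1 and Des stood at -0.50 (adjusted p 0.132) and 0.04 (0.907). Endothelial markers gave 1 higher and 1 lower of 8 (median -0.12), with sums of 457.7 to 635.1 CPM in FFD and 557.7 to 594.8 CPM in NCD. The lymphatic and sinusoidal receptor Lyve1 rose by 0.74 (SE 0.20, adjusted p 0.0202) and was detected in no NCD region. The VEGF receptor Kdr fell by 0.51 (SE 0.15, adjusted p 0.0326), a call lost without the filter (0.0528).

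Macrophage markers rose in 6 of 10 cases and 1 fell (median 0.77), with sums of 1252 to 1632 CPM in FFD and 746.6 to 964.1 CPM in NCD. Gpnmb rose by 2.46 (SE 0.32, adjusted p 9.78e-05), C1qb by 1.03 (SE 0.16, 4.49e-04) and Trem2 by 1.30 (SE 0.20, 5.05e-04). Gpnmb and Trem2 were detected in no NCD region, so background is part of their NCD levels. The lower call was Timd4, a marker of resident macrophages, at 25.9, 15.6 and 35.7 CPM in FFD and 44.2, 44.2 and 33.9 CPM in NCD, which overlapped (log2 -0.68, SE 0.22, adjusted p 0.0489, and 0.0516 without the filter). Of 3 tested cholangiocyte markers 1 rose (median 0.50), with sums of 922.2, 1073 and 257.3 CPM in FFD 1 to 3, against 103.6, 135.0 and 139.2 CPM in NCD. Spp1, which other cells also make, was the larger share of that sum in FFD, at 830.0, 952.6 and 192.7 CPM in FFD and 30.1, 50.5 and 70.9 CPM in NCD (log2 3.68, SE 0.45, adjusted p 5.47e-05). Krt19 and Epcam, defining genes of bile ducts, were each detected in 1 of 3 FFD regions and in no NCD region. Krt7 was detected in 1 FFD and 1 NCD region and did not pass (log2 -0.23, adjusted p 0.371). Sox9, detected in 2 FFD regions and no NCD region, did not pass either (0.50, 0.175). Cldn4 was detected in no region. Without the filter Epcam passed as higher (adjusted p 0.0402). Hepatocyte markers gave 0 higher and 3 lower of 7 (median -0.51), with sums of 33730 to 58560 CPM in FFD and 64280 to 94930 CPM in NCD. Most of each sum was Alb, albumin, which did not pass (log2 -0.93, adjusted p 0.0648), and Apob, of the lipoproteins, lay higher in every FFD region without passing (0.40, 0.126). Among them Serpina1a, a secreted protease inhibitor, fell by 0.93 (SE 0.25, adjusted p 0.0179), the transcription factor Hnf4a by 0.51 (SE 0.14, 0.0207) and the urea cycle enzyme Cps1 by 0.85 (SE 0.25, 0.0331). The Hnf4a call was lost without the filter (0.0582). The part of these cell markers in the collagen differences was not tested.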

How the data were processed

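RNA counts came from 3 FFD and 3 NCD regions, grouped by the labels. The deposited count tables hold expected counts per target after probe quality control, per the file headers, and the filtered one keeps 13099 of 19963 targets. The deposited Q3 table holds a signal scaled by the 75th percentile, per the labels' protocols. Nuclei and reads are counts, saturation is a percent, and the other columns used (area, position, probes per target, limit of quantitation) carry no stated unit, per the file headers. The submitters' processing notes name the build GRCm38 and the tool edgeR, with no version.

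Targets that are no genes were left out (4 of 13099, and 12 of 19963, with 0.0145 to 0.0192% of counts). Counts were rounded and tested with edgeR 4.0.16 quasi-likelihood (R 4.3.3), upper quartile scaling, a single diet term, and p-values adjusted by Benjamini-Hochberg over 13095 genes at 0.05. SE is the absolute log2 fold change over the square root of F. Alternatives used TMM, DESeq2 1.42.0, limma 3.58.1, other filters, background subtraction with a floor of 1 count, and left-out regions. All 44 chains matched RefSeq by gene ID. The members, lists and alternatives were chosen with earlier results of these data known. Chains past the threshold or detected in all regions of a diet are named with values, and list genes up to 4 per pathway list and 3 per marker list in order of p, or the first 2 where none passed. Other genes named were chosen after their values were seen. The control well without template was left out.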

Additional observations from a re-analysis of the deposited data

How the results depend on the processing

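No paired analysis was possible because FFD and NCD regions carry different numbers in the labels. Genes called higher over the whole table were 778, and 3632 with negative probe scaling, 431 with FFD 3 as the only FFD region, 511 with NCD 1 and NCD 2 as 1 region, and 396 to 853 without 1 region (486 without NCD 1, 396 without NCD 2). Genes called lower were 1459, and 893 with TMM, 894 with DESeq2 size factors, 604 with total counts, 206 with negative probe scaling, 467 with the DESeq2 Wald test (762 higher), 795 with background subtracted (723 higher), 386 with FFD 3 alone, 914 with NCD 1 and NCD 2 as 1, and 617 to 1778 without 1 region (821 without FFD 2, 704 without NCD 1, 617 without NCD 2). Chains called higher were 10, and 8 to 12 without 1 region and 4 with FFD 3 alone. Chains called lower were 4, and 2 with TMM or DESeq2 size factors, 1 with total counts, the Wald test, background subtracted or FFD 3 alone, and 0 with negative probe scaling. They were 1 to 5 without 1 region (2 without FFD 1 or FFD 3, 1 without FFD 2 or NCD 2). Col18a1 was at 0.090 with negative probe scaling, against -0.30 with the upper quartile, and that scaling moves all genes up alike by 0.39. The cause of the other changes was not tested. Col1a1, Col3a1, Col4a1 and Col14a1 kept their calls in all 20 alternatives, with log2 values of 2.12 to 5.19, 2.06 to 3.73, 1.41 to 2.01 and 0.94 to 1.41. Detected in all FFD regions were 14 chains, and 21 at 1.5 and 7 at 3 times the negative probe. In all NCD regions they were 9, and 15 and 1. List genes called lower were 9, and 5 without the filter, where Mmp9, Kdr, Timd4 and Hnf4a were lost. List genes called higher were 23, and 30 without the filter. The 22 chains under the detection limit had counts of 10 to 75, at 0.35 to 1.95 times the negative probe.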

Other observations

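Ratios between chains that join in a trimer were set side by side by region. The log2 ratio of Col1a1 to Col1a2 in CPM was 1.90, 2.23 and 1.47 in FFD 1 to 3, against 0.00, 0.06 and -0.15 in NCD 1 to 3. These are ratios of 2 probes, and neither chain was detected in any NCD region, so background enters the NCD ratio. For the type IV pair, detected in every region, the log2 ratio of Col4a1 to Col4a2 was 0.45, 0.43 and 0.71 in FFD, against -0.13, -0.23 and -0.09 in NCD, without overlap. For type V, the ratio of Col5a1 to Col5a2 was 0.18, 0.13 and 0.25 in FFD and -0.17, 0.13 and 0.53 in NCD. For type VI, the ratio of Col6a1 to Col6a2 was 0.89, 0.77 and 0.42 in FFD and 0.13, 0.00 and 0.57 in NCD. Both overlapped between the diets. The log2 ratio of Col3a1, which forms trimers of its own, to Col1a1 was 0.80, 0.18 and 0.71 in FFD and 0.66, 0.58 and 1.06 in NCD, which overlapped. None of these ratios was tested, and 3 regions against 3 cannot give an exact permutation p below 0.1.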
